A study of Rattus with 9 samples.

Results

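The simple epithelial keratins Krt7, Krt8, Krt18, Krt19, Krt20 and Krt23 were followed across the cells of the rat bile duct. The 6 genes were taken by symbol and not by any measured value, out of 23836 gene symbols on the 23999 features of the files. Each symbol stood for 1 feature. The identifiers were ENSRNOG00000008057 for Krt7, ENSRNOG00000009779 for Krt8, ENSRNOG00000047393 for Krt18, ENSRNOG00000014233 for Krt19, ENSRNOG00000027139 for Krt20 and ENSRNOG00000011907 for Krt23. All 6 were detected, and all 6 passed the filter on low counts in biliary epithelial cells (BEC).

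Keratins are the intermediate filament proteins of epithelial cells. A type II keratin pairs with a type I keratin to form the filament, so neither type builds filaments alone. Krt7 and Krt8 are type II, whereas Krt18, Krt19, Krt20 and Krt23 are type I. Krt8 and Krt18 are the pair found in nearly all single-layered epithelia, including hepatocytes and bile ducts. Krt7 and Krt19 are used in pathology to mark bile duct cells within the liver, and Krt20 is best known from the gut lining and the urinary tract.

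Cells were dissociated from bile ducts of rats, whose strain and age the labels do not give, and sequenced by 10x Genomics 3′ single-cell RNA sequencing in 9 samples and 20 libraries. The sham group held 3 samples of 1 library each. The ctrl group had a liver transplant with ischemic injury and was sampled at days 1, 3 and 7, with 1 sample of 3 libraries per day. The treat group had the same transplant with arterial flow raised by tying off the splenic and gastroduodenal arteries, with 3 libraries at days 1 and 7 and 2 libraries at day 3. No genetic change or drug was named for any group, and the whole duct wall was digested, so epithelial cells had to be picked out by their genes.

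Whether a sample's libraries were made from different rats is not given in the labels. They were therefore summed, and p-values measure only the spread between the 9 samples, which may be partly technical. Each arm had 1 sample per day, so an arm's spread includes its days. Within the 190 pairs of libraries, at most 1.24% of cell barcodes were shared.

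The 139738 cells kept formed 32 clusters. No keratin was used to build or name them. Of these, 4 clusters with 19757 cells detected 9 to 12 of 12 epithelial markers such as Epcam and Cdh1 together with 4 to 10 of 10 biliary markers such as Sox9, had at least 1 of these among their 10 leading genes over the median cluster or over all other cells, and were called BEC-like. Samples held 21270647 to 290590249 unique molecular identifiers (UMIs, each a tag for 1 captured molecule) and 435 to 4149 BEC-like cells. The day 3 ctrl sample stood apart, because a limit on hemoglobin UMIs, taken from methods for human bile ducts, removed 2472 of 2914 barcodes in its library 2 and 3961 of 4307 in its library 3. Those 2 libraries gave 20 and 29 BEC-like cells, so the day 3 ctrl values rest mainly on library 1, with 591.

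Levels are given as UMIs per 1000000 UMIs of the same cells (CPM). A 3′ library counts 1 tag per molecule, so levels of different genes were compared without a length correction. In BEC-like cells, Krt8 had the highest level of the 6 at 3124 to 5659 CPM over the 9 samples, and Krt18 followed at 3404 to 4592 CPM. These ranges overlapped, and Krt18 exceeded Krt8 in the day 3 treat sample alone. Krt7 lay below both in every sample, at 1286 to 3668 CPM.

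The remaining type I keratins were more than an order of magnitude scarcer than Krt8 and Krt18. Krt19, the smallest keratin and one without a tail domain, ranged from 148 to 271 CPM with a median of 187. Krt20 ranged from 95.6 to 247 CPM with a median of 163, overlapping Krt19. Krt23, a type I keratin found in gut-type epithelia, was the lowest in 8 of 9 samples, from 15.2 to 185 CPM with a median of 28.9. The 6 genes together made up 0.834% to 1.38% of all BEC-like UMIs.

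Epithelial clusters differed in which keratins they carried. The 4 BEC-like clusters are named here by number and by their leading genes over all other cells: cluster 0 (8358 cells, led by Mmp7, Clca5 and Ubd), cluster 2 (2755 cells, led by Reg3b, Reg3g and the division genes Cdc20 and Cenpf), cluster 6 (5236 cells, led by Lypd8, Wfdc21, Duoxa2 and Duox2) and cluster 16 (3408 cells, led by Scgb1c1, Akr1c15 and Ttr). The 10 leading genes over all other cells held no epithelial or biliary marker in clusters 0, 2 and 6, and in cluster 6, which detected all 12 epithelial markers, they held the goblet gene Fcgbp. Over the median cluster, the 10 leading genes held 2 own and 2 goblet markers in cluster 2 and 2 own and 1 goblet marker in cluster 6. All 7 comparisons were repeated without cluster 6, a choice made after the data had been seen, and those values follow the ones for all BEC-like cells. Cluster 2, which like cluster 6 detected 3 goblet markers, was kept, so these markers alone do not set cluster 6 apart.

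**Figure D1:**
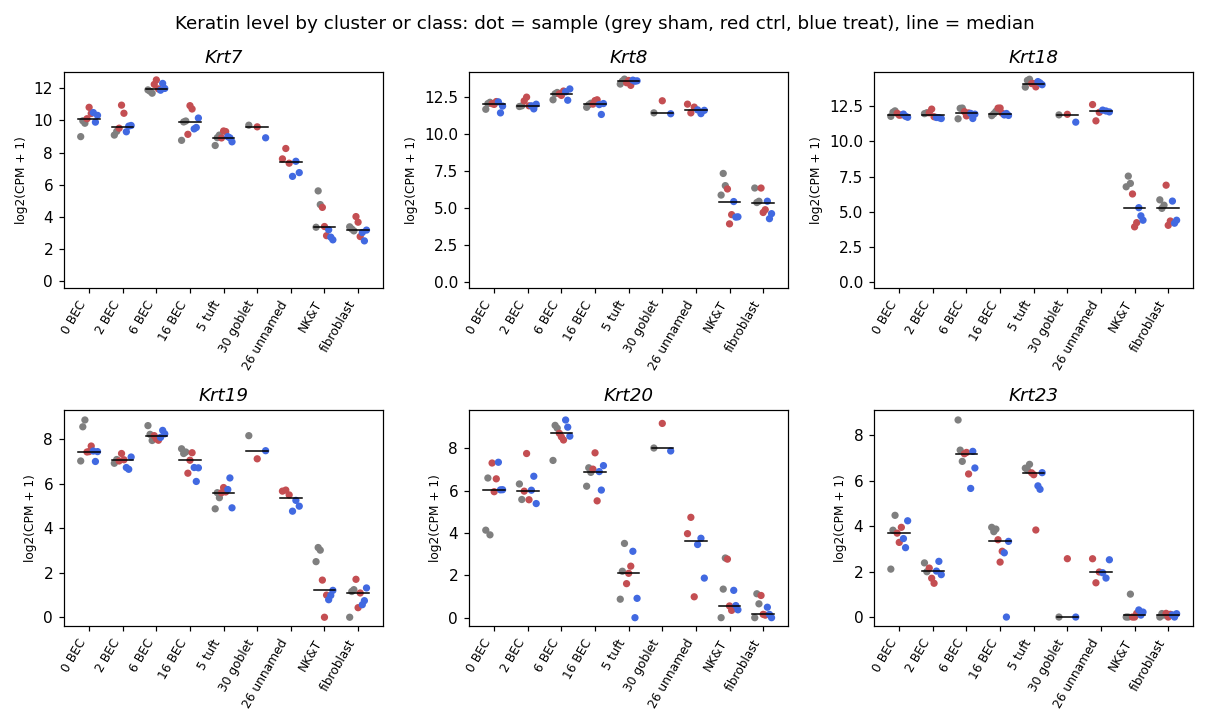
The level of each keratin is plotted as log2(CPM + 1) for the 7 epithelial clusters and, as a background, for NK&T-like and fibroblast-like cells; each dot is a sample with at least 20 such cells and each line a median. Krt8 and Krt18 stand highest in tuft-like cluster 5, whereas Krt7, Krt20 and Krt23 have a higher median in cluster 6 than in the other BEC-like clusters.

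Cluster 6 was the keratin-rich end of the BEC-like cells. Its Krt7 level was 3289 to 5827 CPM with a median of 3961 over 9 samples, and its lowest sample lay above the highest sample of clusters 0 (507 to 1791 CPM), 2 (542 to 1967 CPM) and 16 (432 to 1924 CPM). Krt23 behaved alike, at 49.4 to 405 CPM in cluster 6 against at most 21.2 CPM in cluster 0, 14.4 CPM in cluster 16 and 4.46 CPM in cluster 2. Krt20 had medians of 420 CPM in cluster 6, 119 CPM in cluster 16, 65.3 CPM in cluster 0 and 63.2 CPM in cluster 2, and its lowest sample in cluster 6 (172 CPM) lay below the highest in clusters 16 (221 CPM) and 2 (216 CPM).

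Krt8 also had its highest BEC-like median in cluster 6, at 6860 CPM against 3898 to 4314 CPM in the other BEC-like clusters. The medians of its partner Krt18 lay closer together, at 4070 CPM in cluster 6 and 3740 to 4054 CPM in the others. There were 0.606 Krt18 UMIs per Krt8 UMI in cluster 6 (0.457 to 0.762 over samples), 0.865 in cluster 2, 0.921 in cluster 0 and 1.03 in cluster 16. Counting all 6 genes, cluster 6 held 0.448 type I UMIs per type II UMI, against 0.751 in cluster 0 and 0.779 in cluster 2. Clusters were built from the same cells, so these differences are a description and carry no test.

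Tuft cells are rare chemosensory epithelial cells. Tuft-like cluster 5 (3806 cells, 12 of 13 tuft markers detected) had the highest Krt8 and Krt18 levels of the whole tissue. Krt18 was 14860 to 21897 CPM and Krt8 10169 to 13650 CPM over 9 samples, above every sample of every BEC-like cluster for both genes. The 6 keratins took 3.10% of all UMIs of these cells. There were 1.33 to 1.66 Krt18 UMIs per Krt8 UMI over samples, where cluster 6 had fewer Krt18 than Krt8 UMIs. Epithelial cluster 26, described below, had a like ratio of 1.01 to 1.70 over 6 samples. In tuft-like cells the other members did not follow Krt8 and Krt18. Krt7 was 346 to 647 CPM, Krt19 was 28.3 to 75.6 CPM and Krt20 had a median of 3.28 CPM and 28 UMIs in all. Krt23 was 13.2 to 104 CPM with a median of 80.1, higher than in clusters 0, 2 and 16 in 8 of 9 samples when set against their highest value of 21.2 CPM.

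Goblet-like cluster 30 (232 cells) could be measured in 3 samples. Krt20 was 235, 259 and 581 CPM there, within the range of cluster 6, whereas Krt23 gave 1 UMI in 184 cells. Cluster 26 (953 cells, led by Gkn3, Gast and Agr2) detected 9 of 12 epithelial and 5 of 10 biliary markers, but had none of them among its leading genes by either ranking and was left unnamed. It held Krt8 at 2698 to 4214 CPM and Krt18 at 2822 to 6300 CPM over 6 samples, but Krt7 at 90.9 to 304 CPM and Krt19 at 26.2 to 51.5 CPM. Both Krt7 and Krt19 thus lay below the lowest sample of each BEC-like cluster in this cluster of epithelial cells.

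Cluster 1 (3642 cells, led by the hormone genes Sst, Ghrl and Gcg, with a median of 1449 UMIs per cell) detected 0 of 12 epithelial markers and 1 biliary marker and was also left unnamed. Its Krt8 (3445 CPM) and Krt18 (3261 CPM) levels over all samples stood near those of cluster 0 (3873 and 3569 CPM), whereas Krt7 was at 366 CPM and Krt23 at 1.59 CPM.

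Named cell types outside the epithelium had far less. Fibroblast-like cells had 18.5 to 81.3 CPM of Krt8 and NK&T-like cells 14.3 to 162 CPM, and the highest value in neutrophil-like cells was 297 CPM. Barcodes with 100 UMIs or fewer, which hold free RNA of the suspension and no cell, gave 567 to 2619 CPM of Krt8 and 184 to 970 CPM of Krt7. Free RNA was estimated to give at most 2.16% of the UMIs of any member in BEC-like cells of 8 samples, and 9.39% of Krt18 UMIs in the first sham sample.

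The share of cells with a UMI was compared after thinning cells to 2000 UMIs and leaving out shallower ones. This kept 349 of 435, 1302 of 1661 and 1495 of 1832 BEC-like cells in sham, 3265 of 3621, 531 of 640 and 2249 of 2741 in ctrl, and 2212 of 2392, 1775 of 2286 and 3004 of 4149 in treat. Krt8 was found in 97.3% to 99.8% and Krt18 in 96.4% to 99.7% of BEC-like cells over the 9 samples, so almost every cell kept carried the pair. Krt7 was found in 70.2% to 89.6%, Krt19 in at most 38.4%, Krt20 in 10.7% to 25.4% and Krt23 in 3.35% to 20.1%. NK&T-like cells, which should lack keratins, gave 3.04% to 15.4% for Krt8, 3.04% to 25% for Krt18 and 0.832% to 8.05% for Krt7, and at most 1.34% for Krt19, 0.949% for Krt20 and 0.429% for Krt23. Without thinning, the BEC-like shares were 84.3% to 96.2% for Krt7, 53.4% to 70.1% for Krt19, 16.7% to 41.8% for Krt20 and 9.01% to 31.3% for Krt23, at median depths of 3684 to 11250 UMIs per cell against 2090.5 to 5348.5 in NK&T-like cells.

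Transplantation was compared with sham surgery to ask how the duct epithelium responded to the injured graft. Krt7 stood out among the members. Sham samples had 1916, 1389 and 1286 CPM, ctrl samples had 2412, 3668 and 2001 CPM at days 1, 3 and 7, and treat samples had 1444, 1429 and 1509 CPM. The 3 ctrl samples were all above the 3 sham samples, and as unscaled CPM the treat samples lay within the sham range. After scaling by edgeR's TMM factors the means were 2867 ± 853 in ctrl, 1367 ± 195 in sham and 1524 ± 94.8 in treat (CPM, SD, n = 3 each). The fitted log2 fold change of ctrl against sham was 1.07 (SE 0.25), and its adjusted p of 0.0501 in edgeR's quasi-likelihood test fell just short of the threshold of 0.05.

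The call on Krt7 turned on small choices. It passed with DESeq2 (log2 fold change 1.08, adjusted p = 5.27e-04), which called 10.6% of all genes, and after leaving out the day 7 ctrl sample (1.27, adjusted p = 0.0235, edgeR), where 4.51% were called. Without cluster 16, which held 29.9% to 75.4% of sham BEC-like cells and at most 7.66% of ctrl ones, the estimate fell to 0.32 (adjusted p = 0.569, edgeR), and 0.285% of genes were called. At this threshold 525 of 13063 genes, or 4.02%, were called between ctrl and sham.

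Krt8, the type II partner of Krt18, had 4276, 4555 and 4760 CPM in sham and 5659, 5557 and 5449 CPM in ctrl. The treat samples had 4862, 3124 and 4344 CPM. Every ctrl sample exceeded every sham sample, but the log2 fold change was 0.54 (SE 0.25, adjusted p = 0.234, edgeR). Krt7 and Krt8 were thus 2 of 6 members whose ctrl and sham samples did not overlap, against 27.9% of all 13063 genes and 13.2% with ctrl higher. A two-sided exact permutation test gave p = 0.100 for each, the smallest value that 3 against 3 samples can give.

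The type I keratins showed smaller differences. Krt18 had 3404, 4223 and 4592 CPM in sham, 4372, 4073 and 3863 CPM in ctrl and 3608, 3488 and 3412 CPM in treat. As unscaled CPM the ctrl samples lay inside the sham range. After TMM scaling the day 1 ctrl sample (5264 CPM) lay above the highest sham sample (4347 CPM). The log2 fold change of ctrl against sham was 0.25 (SE 0.25, adjusted p = 0.587, edgeR). Krt19 had 271, 187 and 180 CPM in sham, 191, 206 and 212 CPM in ctrl and 149, 148 and 183 CPM in treat. The first sham sample was the highest of all 9 as unscaled CPM, but not after TMM scaling (225 CPM, against 230 CPM in day 1 ctrl). Krt20 had 111, 203 and 163 CPM in sham, 216, 247 and 150 CPM in ctrl and 220, 124 and 95.6 CPM in treat, so all groups overlapped.

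**Figure D2:**
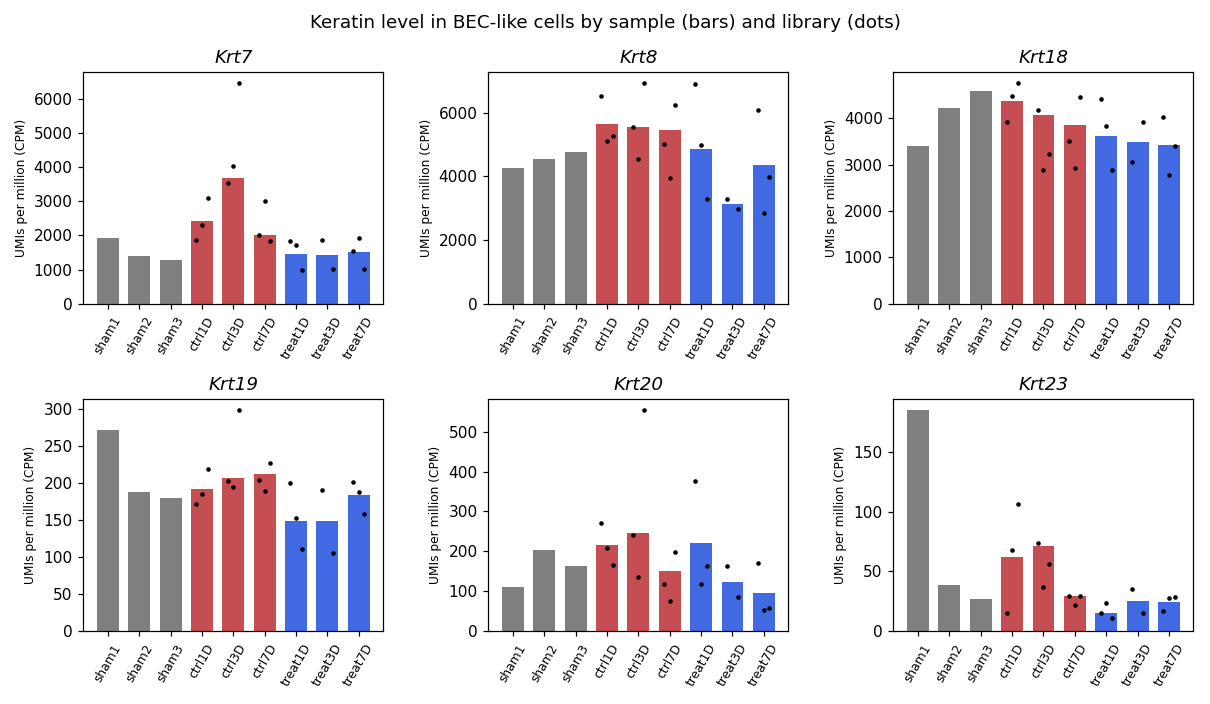
Bars show the level of each keratin in BEC-like cells as CPM in the 9 samples (grey sham, red ctrl, blue treat) and dots show the libraries of samples that had more than 1. The 3 ctrl bars exceed the 3 sham bars for Krt7 and Krt8, and Krt23 is dominated by the first sham sample at 185 CPM.

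Krt23 was the most uneven member. Its sham samples had 185, 38.1 and 26.9 CPM, ctrl samples 61.9, 71.2 and 28.9 CPM, and treat samples 15.2, 25.1 and 24.1 CPM. The first sham sample was the highest of all 9, and it also had the fewest UMIs and the fewest BEC-like cells (435). Those cells were not the shallowest, at a median of 5213 UMIs against 3684 in the day 7 treat sample. With the first sham sample, the log2 fold change of ctrl against sham was -0.27 (SE 0.62, adjusted p = 0.836, edgeR), and without it the estimate was 0.94. That sample held 56.8% of its BEC-like cells in cluster 6, against 20.6% and 14.7% in the other sham samples, and its Krt23 level within cluster 6 was also the highest, at 405 CPM against 161 and 114 CPM.

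No member passed the test between treat and sham. The log2 fold changes were 0.16 (SE 0.25) for Krt7, 0.06 (SE 0.25) for Krt8, -0.02 (SE 0.25) for Krt18, -0.19 (SE 0.16) for Krt19, 0.10 (SE 0.39) for Krt20 and -1.66 (SE 0.64) for Krt23, and the adjusted p-values ran from 0.309 to 0.987 in edgeR. At an unadjusted p under 0.05, 1 member passed (Krt23), as did 1832 of 13063 genes, and DESeq2 called no member. The Krt23 estimate rested on the first sham sample, without which it was -0.46 (SE 0.40, adjusted p = 0.693, edgeR) and no member had an unadjusted p under 0.05. Over all genes edgeR called 0.161% and DESeq2 3.22%. After TMM scaling the groups overlapped for each of the 6 genes, whereas 21.5% of all genes did not overlap. As unscaled CPM, the 3 treat samples of Krt23 lay below the 3 sham samples, by 25.1 against 26.9 CPM at the closest. The share of all genes was not taken on that scale. Without cluster 16 the Krt7 estimate was -0.61, and no member was called by edgeR, beside 38 of 12983 genes. In that setting 2 members had an unadjusted p under 0.05, as had 2247 genes.

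Treat was set against ctrl to ask what raised arterial flow changed after transplantation. All 6 estimates were below 0, with log2 fold changes of -0.91 (SE 0.25) for Krt7, -0.47 (SE 0.25) for Krt8, -0.27 (SE 0.25) for Krt18, -0.38 (SE 0.16) for Krt19, -0.49 (SE 0.39) for Krt20 and -1.39 (SE 0.63) for Krt23. None passed edgeR's test, with adjusted p-values of 0.608 to 0.877, and 2 had an unadjusted p under 0.05. DESeq2 called Krt7 (-0.92, adjusted p = 0.0430). Over all 13063 genes edgeR called 0, or 0%, with 916 at an unadjusted p under 0.05, and DESeq2 called 69, or 0.528%.

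After TMM scaling, treat and ctrl samples did not overlap for Krt7, Krt8, Krt19 and Krt23, with every treat sample lower (exact permutation p = 0.100, the smallest possible). This compares with 12.2% of all genes whose treat and ctrl samples did not overlap, and 6.22% in that direction. As unscaled CPM, a scale on which the share of all genes was not taken, the treat samples of Krt18 were also all lower. Without cluster 6 and after TMM scaling, the groups overlapped for all 6 members. The median log2 fold change of the 6 members was -0.48, beside 0.05 over all genes tested. This comparison and that of ctrl with sham share the ctrl samples. With day as a replicate block, which pairs the arms within days, Krt7 was -0.87 (SE 0.20, adjusted p = 0.336, edgeR) and none of the 6, and 0% of all genes, was called.

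**Figure D3:**
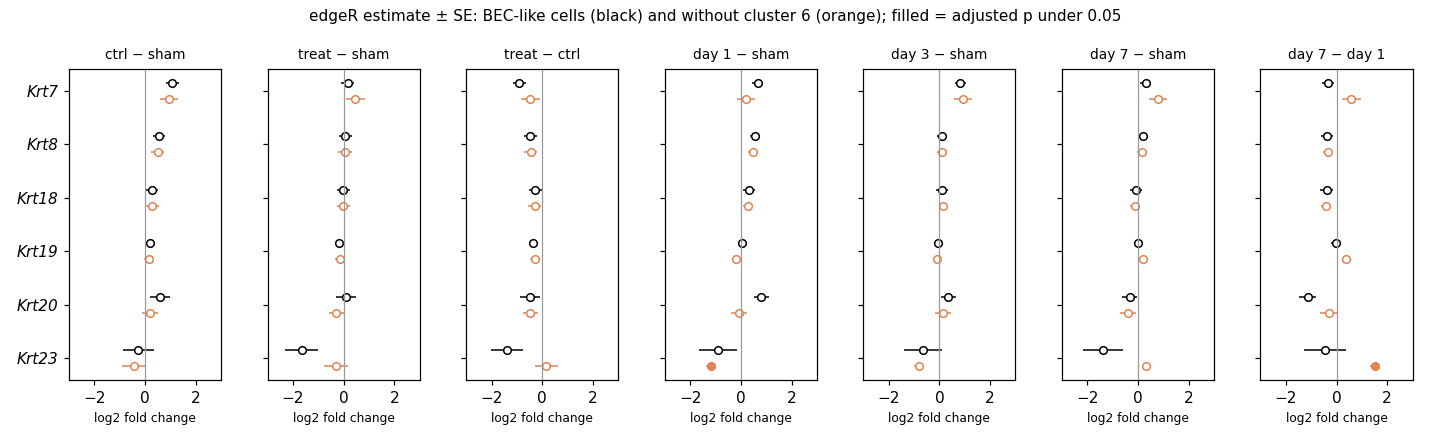
Log2 fold changes of the 6 keratins in 7 comparisons with bars of 1 SE are plotted for all BEC-like cells (black) and without cluster 6 (orange), with filled dots past an adjusted p of 0.05. No black dot is filled, Krt7 lies furthest right of the members in ctrl against sham, and the only filled dots are orange ones of Krt23 at day 1 against sham and day 7 against day 1.

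Other cell types' genes moved with the groups as well. In BEC-like cells the summed level of 7 goblet markers, all detected, was 4268 to 5930 CPM in ctrl, 2854 to 3299 CPM in sham and 2782 to 3682 CPM in treat. Ctrl was higher throughout, as for Krt7 and Krt8. The 7 neutrophil markers summed to 3.65 to 11.9 CPM in sham, 193 to 365 CPM in ctrl and 57.8 to 313 CPM in treat. The 10 biliary markers, which are the BEC's own, were lower than in sham (6830 to 6916 CPM) in both transplanted groups. They summed to 4862 to 5331 CPM in ctrl and 5467 to 5721 CPM in treat. The 12 epithelial markers, also the BEC's own, summed to 6288 to 6923 CPM in treat. This was below both ctrl (8083 to 9720 CPM) and sham (7133 to 10652 CPM). The part of these in the keratin levels was not tested.

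Days after transplantation were compared with sham in a fit that took out the difference between arms, with 1 ctrl and 1 treat sample per day. On day 1, the log2 fold changes were 0.66 (SE 0.22, adjusted p = 0.0716) for Krt7, 0.57 (SE 0.20, adjusted p = 0.0922) for Krt8 and 0.81 (SE 0.30, adjusted p = 0.0977) for Krt20. No member passed in edgeR, whereas 17.8% of 13469 genes were called. These 3 had an unadjusted p under 0.05, as had 4763 of the 13469 genes. DESeq2 called Krt7 and Krt8, with 23.8% of genes. Without the first sham sample, Krt7 passed in edgeR (adjusted p = 0.0254), with 26.5% of genes. With scaling by library size alone, 0 of the 6 members had an unadjusted p under 0.05 (edgeR), beside 5266 of 13469 genes. Krt7 at day 1 was 2412 CPM in ctrl and 1444 CPM in treat. The treat value lay within the sham range of 1286 to 1916 CPM.

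By day 3, Krt7 alone had an unadjusted p under 0.05, at 0.83 (SE 0.22, adjusted p = 0.0855, edgeR). Over all 13469 genes, 2912 had an unadjusted p under 0.05 and 2.76% were called. Krt7 was called on that day by DESeq2 (adjusted p = 0.00391), with 9.04% of genes, and without the first sham sample (adjusted p = 0.0307, edgeR), with 9.06%. Its day 3 levels were unlike, at 3668 CPM in ctrl and 1429 CPM in treat, the latter within the sham range of 1286 to 1916 CPM. At day 7 the estimates for Krt7 and Krt8 were 0.31 (SE 0.22) and 0.20 (SE 0.21). No member had an unadjusted p under 0.05, beside 2864 of 13469 genes, and DESeq2 called no member. Over all genes, 3.80% were called by edgeR and 8.94% by DESeq2.

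In all BEC-like cells, Krt20 had the largest estimate of the 6 members for day 7 against day 1. Both day 1 samples (216 and 220 CPM) exceeded both day 7 samples (150 and 95.6 CPM). The log2 fold change of day 7 against day 1 was -1.14 (SE 0.34, adjusted p = 0.0589, edgeR), beside 15.2% of genes called. It passed with DESeq2 (-1.15, adjusted p = 0.0140), which called 21.7% of genes, and without the first sham sample (adjusted p = 0.0103, edgeR), where 29.3% were called. Cluster 6, the cluster with the most Krt20, held 56.6% and 32.8% of BEC-like cells at day 1 and 20.9% and 6.82% at day 7. Without cluster 6 the days overlapped, with Krt20 at 72.0 and 81.8 CPM on day 1 and 90.0 and 64.2 CPM on day 7, and the estimate was -0.31 (SE 0.35, adjusted p = 0.516, edgeR), with 32.8% of genes called.

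The makeup of the BEC-like cells shifted strongly between samples. Cluster 16 held 29.9%, 68.7% and 75.4% of them in sham and at most 15.6% in any transplanted sample. Cluster 2 held 33.5% and 40.4% at day 1 and at most 10.3% in every other sample. Cluster 0 held 75.8% and 89.2% at day 7 and 76.4% in the day 3 treat sample. Cluster 6 held 56.8%, 20.6% and 14.7% in sham, 56.6%, 52.7% and 20.9% in ctrl and 32.8%, 15.4% and 6.82% in treat. The clusters were drawn from these same cells, so their sizes are a description.

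**Figure D4:**
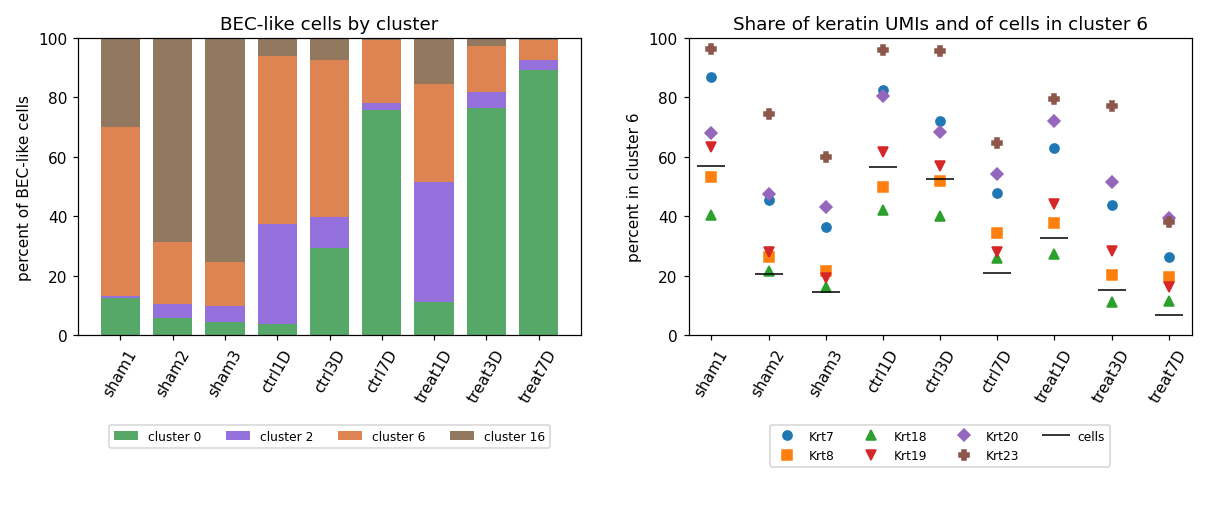
Left, the percent of BEC-like cells in each of the 4 clusters for the 9 samples; right, the percent of each keratin's UMIs and of all BEC-like cells that lay in cluster 6. Cluster 16 dominates 2 of 3 sham samples, cluster 0 dominates day 7, and the Krt23, Krt20 and Krt7 symbols lie above the black cell marks.

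Cluster 6 carried 26.5% to 87.0% of the Krt7 UMIs of BEC-like cells, depending on the sample. It carried 39.5% to 80.4% of the Krt20 UMIs and 38.2% to 96.3% of the Krt23 UMIs, but 11.3% to 42.1% of the Krt18 UMIs. The order of the samples in a class-wide level was not always that of their share of cluster 6, as the first sham sample had the largest share but less Krt20 (111 CPM) than the second (203 CPM). The members were measured again without cluster 6 and within each cluster. These splits were chosen after the data had been seen.

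Without cluster 6, Krt7 had 446, 920 and 955 CPM in sham, 722, 1875 and 1377 CPM in ctrl and 704, 919 and 1231 CPM in treat. The day 1 ctrl sample now lay within the sham range on this scale, but after TMM scaling the ctrl samples were still all above the sham samples. The log2 fold change of ctrl against sham was 0.93 (SE 0.36, adjusted p = 0.196, edgeR; 2.19% of genes called), and that of treat against ctrl was -0.47 (SE 0.36, adjusted p = 1.00, edgeR; 0% called).

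Krt8 without cluster 6 had 3572, 4062 and 4342 CPM in sham, 4823, 4895 and 4703 CPM in ctrl and 4002, 2847 and 3876 CPM in treat. The ctrl samples were again all above the sham samples, at a log2 fold change of 0.50 (SE 0.26, adjusted p = 0.316, edgeR). Krt7 and Krt8 were the members whose ctrl and sham samples did not overlap after TMM scaling, as was so for 27.2% of all genes. In treat against ctrl, where 5.79% of genes did not overlap, the Krt8 estimate was -0.45 (SE 0.26, adjusted p = 1.00, edgeR). The treat samples of Krt8 were all below the ctrl samples as CPM but not after TMM scaling, the scale of that share.

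The samples of the type I keratins overlapped between ctrl and sham and between treat and ctrl outside cluster 6 after TMM scaling. Krt19 had 178, 163 and 169 CPM in sham, 125, 162 and 201 CPM in ctrl and 110, 121 and 170 CPM in treat, with -0.30 (SE 0.17, adjusted p = 1.00, edgeR) for treat against ctrl. Krt23 was at 0.16 (SE 0.45, adjusted p = 1.00, edgeR) for treat against ctrl, where the estimate with cluster 6 was below 0. For ctrl against sham, the estimates were 0.28 (SE 0.26) for Krt18, 0.14 (SE 0.17) for Krt19, 0.19 (SE 0.31) for Krt20 and -0.46 (SE 0.47) for Krt23, with adjusted p-values of 0.559 to 0.771 in edgeR. All 6 members overlapped between treat and sham on that scale, where 23.1% of genes did not. No member passed in treat against sham, where 0.265% of genes were called, at day 3 (5.86%) or at day 7 (9.64%). None of the 6 had an unadjusted p under 0.05 in treat against sham, where 1785 of 12823 genes had one, or at day 7 (3648 of 13227). At day 3, Krt7 (0.94, adjusted p = 0.149, edgeR) and Krt23 (-0.79, adjusted p = 0.0649, edgeR) had one, as had 3254 of 13227 genes. From day 1 to day 7, Krt19 was at 0.37 (SE 0.12, adjusted p = 0.0509, edgeR), just short of the threshold.

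Within single clusters, the Krt7 estimates for ctrl against sham were 1.02 (SE 0.29, adjusted p = 0.127) in cluster 0, 1.39 (SE 0.31, adjusted p = 0.0206) in cluster 2, 0.66 (SE 0.27, adjusted p = 0.261) in cluster 6 and 0.81 (SE 0.39, adjusted p = 0.373) in cluster 16, all by edgeR. All 4 were above 0, and cluster 2 alone passed, where 11.9% of 8890 genes did, against 0% in cluster 0, 0.399% in cluster 6 and 0.780% in cluster 16. Only 2 sham samples had 20 cells of cluster 2. Their Krt7 levels were 542 and 636 CPM, against 730, 1967 and 1387 CPM in ctrl and 625, 797 and 820 CPM in treat. The day 3 ctrl value was the highest, from 66 cells.

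By day within cluster 2, Krt7 rose against sham by a log2 fold change of 1.26 at day 3 (SE 0.21, adjusted p = 0.00880) and 1.01 at day 7 (SE 0.21, adjusted p = 0.0300), but at day 1, when most of its cells were sampled, the estimate was 0.45 (SE 0.20, adjusted p = 0.162, edgeR throughout). Krt20 rose there at day 3 by 1.46 (SE 0.29, adjusted p = 0.0176, edgeR), with 79.0 and 47.1 CPM in sham and 216 and 102 CPM at day 3. In cluster 2, 15.5% of genes were called at day 1, 9.80% at day 3 and 4.74% at day 7.

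**Figure D5:**
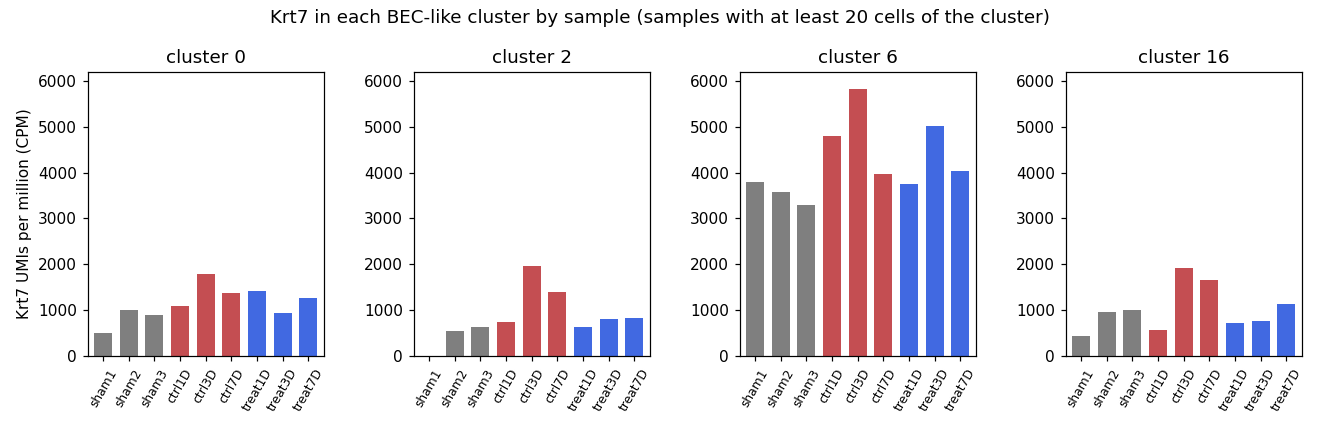
Krt7 level as CPM in each BEC-like cluster for each sample with at least 20 cells of that cluster (grey sham, red ctrl, blue treat), on 1 shared axis. Every bar of cluster 6 is at least 3289 CPM and every bar of the other clusters is at most 1967 CPM, with the day 3 ctrl sample the highest in each cluster.

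Krt23 outside cluster 6 was low and separated the days. The sham samples had 12.3, 11.8 and 12.5 CPM, both day 1 samples had less (4.34 CPM in ctrl and 4.15 CPM in treat), day 3 samples had 5.71 and 6.58 CPM, and day 7 samples had 13.5 and 16.5 CPM. These rested on 21, 131 and 198 UMIs in sham, 131 and 115 at day 1, 22 and 110 at day 3 and 214 and 403 at day 7. Krt23 in these cells fell at day 1 against sham by a log2 fold change of -1.19 (SE 0.19, adjusted p = 0.00453, edgeR), where 30.2% of genes were called. It then rose from day 1 to day 7 by 1.53 (SE 0.20, adjusted p = 0.00253, edgeR), where 32.8% were called. With cluster 6 included, the estimate for day 7 against day 1 was -0.47 (SE 0.83, adjusted p = 0.731, edgeR). Within cluster 0 the day 1 levels (11.9 CPM in ctrl, 9.93 CPM in treat) lay inside the sham range of 3.31 to 21.2 CPM. In cluster 16 they were 9.55 and 6.08 CPM, against 14.4, 12.5 and 13.6 CPM in sham. In cluster 2 they were 3.45 and 3.06 CPM, against 4.21 and 2.98 CPM in sham. In clusters 0 and 16 alone, edgeR called no member in either comparison, with 27 and 66 of 10220 and 446 and 54 of 8965 genes called. Cluster 2, whose highest Krt23 level in any sample was 4.46 CPM, was largest on day 1, and its part in the change without cluster 6 was not tested.

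In tuft-like cells no member passed the test. Krt7, Krt8, Krt18, Krt19 and Krt23 passed the filter, and none of these 5 was called in any of the 7 comparisons by edgeR or DESeq2, nor had an unadjusted p under 0.05. For ctrl against sham the log2 fold change was -0.06 for Krt8, -0.15 for Krt18 and 0.38 (SE 0.21, adjusted p = 0.487, edgeR) for Krt7. There edgeR called 0 of 8125 genes (0%), with 988 at an unadjusted p under 0.05 and 49 by DESeq2. In the day comparisons 0.0463% (day 1), 0.463% (day 3) and 0.347% (day 7) of genes were called against sham, and 0.301% for day 7 against day 1.

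Libraries of the same sample also differed. Krt8 was 6089, 2859 and 3974 CPM in the 3 libraries of the day 7 treat sample and 6900, 4988 and 3289 CPM in those of the day 1 treat sample, a spread wider than that between the group means. Krt7 was 1859, 2307 and 3097 CPM in the libraries of day 1 ctrl. Krt23 was 14.7, 68.1 and 106 CPM in those same 3 libraries. With each library taken as its own sample, Krt7 passed in ctrl against sham (1.24, adjusted p = 0.0321) and in treat against ctrl (-1.10, adjusted p = 0.0445) by edgeR, with 5.29% and 0.311% of genes called. Libraries of 1 sample may share a rat, so these p-values may be too small.

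The ratio of Krt18 to Krt8 and the split of the type II keratins were taken from the same UMI counts. Krt18 UMIs per Krt8 UMI in BEC-like cells were 0.796, 0.927 and 0.965 in sham, 0.773, 0.733 and 0.709 in ctrl and 0.742, 1.12 and 0.785 in treat. The ctrl ratios were all below the sham ratios, by 0.773 against 0.796 at the closest, and the day 3 treat sample was the highest. No share over all genes was taken for such ratios. The ratio also differed between BEC-like clusters, from 0.606 in cluster 6 to 1.03 in cluster 16. The part of cluster makeup in the ratios was not tested. Krt7 made up 30.9%, 23.4% and 21.3% of type II UMIs in sham, 29.9%, 39.8% and 26.9% in ctrl and 22.9%, 31.4% and 25.8% in treat, so the groups overlapped.

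Across the 32 clusters, the members with the most alike patterns were Krt8 and Krt18 (Pearson r = 0.997 of log2(CPM + 1)) and Krt7 and Krt19 (0.982), and the least alike were Krt20 and Krt23 (0.687). Each r describes clusters from the same libraries, most of them non-epithelial, and carries no test. Among other genes, Krt8 and Krt18 were most like the tight junction gene Cldn7, the epithelial transcription factor Elf3 and the mitochondrial creatine kinase Ckmt1 (0.988 each for Krt8, 0.981 to 0.984 for Krt18). Cldn7 and Elf3 were among the markers used to name clusters. Krt7 was most like Mal2, Tm4sf4 and LOC298795 (0.975 to 0.978), and Krt19 was most like LOC298795, Anxa13 and Tm4sf4 (0.981 to 0.984).

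Krt20 was most like the intestinal cadherin Cdh17 (0.966), Lypd8 (0.959) and the gut galectin Lgals4 (0.958). Krt23 was most like Rnf186 (0.916), AC130970.1 (0.882) and Adipoq (0.881), its closest matches being weaker than those of any other member. Over the 9 samples of BEC-like cells, the closest genes were picked as the highest of all genes and are named without a value: Ctsb, Atp6v0c and Serpinb6a for Krt7, Gmeb1, Eaf1 and Sdc1 for Krt8, Eef1akmt2, Arf6 and Scd2 for Krt18, Rnf13, Zdhhc18 and Ndel1 for Krt19, Rae1, Mrpl45 and Abracl for Krt20, and Tmem30a, Cd2ap and Dnajb6 for Krt23.

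In the order of a RefSeq rat gene table (GRCr8), the type II gene Krt8 and the type I gene Krt18 are neighbours on chromosome 7, where Krt7 also lies between Krt80 and Krt87. Krt20 and Krt23 are neighbours on chromosome 10, which also holds Krt19 between Krt15 and Krt9. Neighbours did not always keep the same pattern, as Krt20 and Krt23 had the lowest r of all pairs of members. Krt18 has 6 named pseudogenes and 1 like gene, and Krt8 has 1 pseudogene. These were found by name and their sequences were not compared. Whether they affected the counting of Krt8 or Krt18 reads was not tested, and both levels carry that doubt.

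Related gene lists were read in the same fits. Of 18 other keratins in the files, 13 were tested, and 1 was called between ctrl and sham, beside 4.02% of all genes. This was Krt16, a type I keratin of stratified epithelia that is induced in wounded skin. Its BEC-like levels were 0.329 (1 UMI), 2.01 and 1.96 CPM in sham, 22.1, 46.4 and 14.8 CPM in ctrl and 4.53, 3.77 and 7.13 CPM in treat. As unscaled CPM, no sample of one group reached the range of the next. Krt16 is described because it was called in these same data, and the order of the groups was not tested. After TMM scaling, ctrl and sham samples did not overlap for 27.9% of all genes. The shares were 21.5% for treat and sham and 12.2% for treat and ctrl. The share of all genes was not taken as unscaled CPM. Krt16 rose in ctrl against sham by a log2 fold change of 4.21 (SE 0.53, adjusted p = 0.00849, edgeR). The estimates were 1.75 (SE 0.51, adjusted p = 0.211) for treat against sham and -2.46 (SE 0.46, adjusted p = 0.424) for treat against ctrl. The ctrl call was lost without the second sham sample (4.41, adjusted p = 0.0593) and without the third (4.42, adjusted p = 0.0603), where the estimates did not fall, and without cluster 16 (3.89, adjusted p = 0.0565) or cluster 6 (1.58, adjusted p = 0.0743). It was kept in cluster 6 alone (4.38, adjusted p = 0.0484, edgeR) and in cluster 2 alone (adjusted p = 0.0102, edgeR).

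In ctrl against sham, the intermediate filament gene Bfsp1 (2.02, adjusted p = 0.0455, edgeR) was called among 11 tested. Krtcap3 (0.78, adjusted p = 0.0491, edgeR) was called among 11 genes listed as keratin-binding or keratin-regulating. Whether its product binds or regulates keratin was not tested. None of 12 desmosome and plakin genes and none of 16 epithelial transcription factors was called in this comparison.

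At day 1 against sham, the calls in these lists were mixed in direction. Krt16 (2.85, adjusted p = 0.0179), Bfsp1 (2.22, adjusted p = 0.00894), the nuclear lamin gene Lmnb1 (1.18, adjusted p = 0.0351) and Krtcap3 (0.78, adjusted p = 0.0226) rose. The plakin gene Dst (-1.59, adjusted p = 0.0384), the intermediate filament gene Synm (-0.96, adjusted p = 0.0358) and the epithelial transcription factor Tfcp2l1 (-0.97, adjusted p = 0.0178) fell. In all, 1 of 13 other keratins, 1 of 13 desmosome and plakin genes, 3 of 11 intermediate filament genes and 3 of 16 transcription factors were called. So were 2 of 11 genes listed as keratin-binding or keratin-regulating. Over all genes, 17.8% were called.

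At day 3, Krt16 (3.25, adjusted p = 0.0347) and Bfsp1 (1.60, adjusted p = 0.0401) were above sham, as 1 of 13 other keratins and 1 of 11 intermediate filament genes, beside 2.76% of all genes. At day 7 Krt16 (2.71, adjusted p = 0.0468) was the 1 gene called in these lists, beside 3.80% of all genes. From day 1 to day 7, where 15.2% of all genes were called, Tfcp2l1 (1.29, adjusted p = 0.0138) and Grhl2 (0.81, adjusted p = 0.0452) rose, as did Sfn (1.48, adjusted p = 0.0145), which encodes the epithelial 14-3-3 protein sigma. The differentiation keratins of the epidermis Krt1 (-2.24, adjusted p = 0.0393) and Krt10 (-1.28, adjusted p = 0.0238) fell, as did Bfsp1 (-1.35, adjusted p = 0.0284). Krt1 stayed at or under 2.87 CPM in every sample. No gene of any list was called by edgeR in treat against sham or in treat against ctrl. Of the 24 calls on 15 list genes, 0 kept an adjusted p under 0.05 whichever of the 9 samples was left out.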

How the data were processed

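The authors deposited raw UMI counts, as whole numbers for each gene in each barcode, for 20 libraries with empty barcodes included. The submitters' processing notes name Cell Ranger 5.0.1 and Seurat 3.2.0, while the matrix headers name Cell Ranger 4; the genome build and annotation are not given in the sources used here. The first day 3 treat library is not used here.

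The 6 members and all lists were chosen with earlier results of these data known. Of 161086 barcodes with over 400 genes, 150284 also had fewer than 6000 genes, less than 25% of UMIs from mitochondria and less than 3% from hemoglobin (limits that the paper's supplement gives for its human bile duct cells; none for these rat cells is given in the sources used here, and other limits were not tried). Of these, the 10546 above the 92.5th percentile of a simulated-doublet score in their library were removed, a percentile of the same origin. Free RNA was not subtracted. Cells were clustered with scanpy 1.11.5 (2000 variable genes without keratins or listed genes, 30 components, Leiden resolution 0.9) and named from fixed marker lists. A marker counted as detected in a cluster if over 10% of its cells had it and its level, after adding 10 CPM to each side, was over 2 times that outside the cluster; at least 3 were needed.

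Counts of BEC-like cells were summed per sample and tested with edgeR 4.0.16 (TMM, filterByExpr, quasi-likelihood test) in 1 fit of 9 samples, with Benjamini-Hochberg adjustment over all genes tested, and with a two-sided exact permutation test of log2(CPM + 1). Days were fitted with a term for arm. Named genes were the 6 members, the list genes called (at most 8 per comparison by fold change) and, for likeness, the 3 genes with the highest r. Some list genes that were called are not reported here. Alternatives were DESeq2 1.42.0, other scaling, no filter, leaving out samples, other cell choices, thinning, free-RNA subtraction and a day block. The test was checked on simulated data. Tests on single clusters and without cluster 6 were added after seeing the data.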

Additional observations from a re-analysis of the deposited data

How the results depend on the processing

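None of the 6 keratins was called by edgeR in any of the 7 comparisons, and treat against sham stayed at 0 in all settings. In ctrl against sham, 1 was called (Krt7 each time) with DESeq2, edgeR RLE factors, each library as its own sample, all epithelial clusters, cells chosen by 3 of 12 epithelial markers, no doublet removal and cluster 2 alone. In treat against ctrl, 1 was called (Krt7) with DESeq2 and with libraries taken singly; the day as a replicate block left 0. At day 1 against sham, DESeq2 called 2, and all epithelial clusters, the marker choice and the cells without cluster 6 called 1 each. At day 3, DESeq2 called 1 and cluster 2 alone 2, and at day 7 cluster 2 alone called 1. For day 7 against day 1, 1 was called with DESeq2, no filter, each library as its own sample and without cluster 6. Leaving out each sample in turn gave 0 to 1 called in ctrl against sham and in day 1, day 3 and day 7-to-day-1 comparisons, and a day left with 1 sample was assumed to vary like the others. Among values called in all BEC-like cells or under the alternative, those that changed sign were Krt23 for day 7 against day 1 without cluster 6 (1.53), Lmnb1 at day 1 in clusters 0 (-0.25) and 2 (-0.13), and Sfn for day 7 against day 1 in cluster 16 (-0.12); the cause was not tested. Of 1067 member estimates under alternatives, 119 changed sign, 1 of them called.

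Calls over all genes ranged from 16 to 615 on leaving out a sample in ctrl against sham (525 with all) and from 37 to 1386 under other alternatives, leaving aside those added later. The ranges were 0 to 26 and 6 to 421 for treat against sham (21), 0 to 19 and 0 to 69 for treat against ctrl (0), 1 to 3545 and 430 to 3199 at day 1 (2394), 42 to 1211 and 110 to 1218 at day 3 (372), 25 to 1250 and 161 to 1204 at day 7 (512), and 0 to 3924 and 578 to 3739 for day 7 against day 1 (2049). The fits added after seeing the data, on single clusters and without cluster 6, gave 0 to 1061 calls in ctrl against sham, 2 to 260 in treat against sham, 0 in treat against ctrl, 5 to 4000 at day 1, 22 to 871 at day 3, 31 to 1275 at day 7 and 54 to 4342 for day 7 against day 1. Scaling by library size alone moved the median log2 fold change of all genes by up to -0.356 (to -0.403, day 1) and split the calls into 120 higher and 440 lower in ctrl against sham (237 and 288 with TMM), 5 and 9 in treat against sham (11 and 10), 444 and 2214 at day 1 (1427 and 967), 158 and 213 at day 3 (265 and 107) and 1431 and 322 for day 7 against day 1 (949 and 1100). Under it, Krt7 in treat against sham was -0.07 and Krt8 -0.14, neither called. Depth limits Krt23 most, with 7552 UMIs in all BEC-like cells.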
